A study of Drosophila melanogaster with 6 samples.

Results

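Follicle cells expressing the Q79K-W80R form of human AKT1 were compared directly with follicle cells expressing the T15 form, 3 RNA-Seq libraries against 3, which are 6 of the 18 libraries of the series. The comparison covered every gene with a normalized count of at least 10 in at least 3 of these 6 libraries, 8944 of the 17493 genes in the matrix. Q79K-W80R carries a double substitution in AKT1, whereas T15 carries an in-frame tandem duplication within the pleckstrin homology domain, which breaks a codon and so replaces a residue as well. Both transgenes carried a FLAG tag, were inserted at the 51C landing site and were driven by tj-GAL4, a driver active in the somatic cells of the Drosophila ovary, in flies that keep their own Akt gene. T1 and T5 carry other duplications, WT expressed unmutated human AKT1, and LP had the empty landing site; these 4 lines enter only as levels set beside the comparison. Each library came from 30 pairs of ovaries of an individual cross, digested with trypsin and collagenase and passed through a mesh. Each form was studied in 1 line as the labels give it, so the AKT1 form and the stock that carries it cannot be told apart. Neither mutation can be read in these values, which are for fly genes only. Neither the labels nor the methods give the age or the rearing temperature of the flies used for RNA-Seq.

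AKT is the kinase through which insulin receptors and PI3K promote growth. It binds phosphoinositides at the plasma membrane with its pleckstrin homology domain, is phosphorylated by Pdk1 and by TOR complex 2, and then restrains the transcription factor FOXO and releases TOR complex 1 from inhibition. Residues at the border between the pleckstrin homology and kinase domains keep AKT closed, and changes there can leave it open. In the fly ovary, follicle cells surround each egg chamber, stop dividing, enlarge by endocycles, deliver yolk proteins, and late in oogenesis secrete the vitelline membrane and the chorion of the eggshell. Their maturation is timed by ecdysone, the insect steroid hormone.

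A gene was called at an adjusted p under 0.05, with limma on log2(normalized count + 1), and called a DEG if it also had a fold change of at least 1.5 in either direction, a Log2FC of 0.585. Log2FC is Q79K-W80R minus T15 throughout. Of the 8944 genes, 4360 passed the adjusted p alone, 2232 higher and 2128 lower in Q79K-W80R, which is 48.7% of the genes tested, 25.0% in the higher direction and 23.8% in the lower. There were 1779 DEGs (19.9%), with 1240 higher (13.9%) and 539 lower (6.03%) in the Q79K-W80R libraries. The 2 groups of libraries did not overlap at 1759 of the DEGs, against 5454 of all genes tested (61.0%). A change of at least 4-fold was found for 187 of the higher and 29 of the lower DEGs. The median Log2FC over all genes tested was 0.00. With quantile normalization, which forces the same distribution of values on each library, the DEGs split into 955 higher and 755 lower, so the excess of higher genes depends in part on the scaling. In a fit of all 18 libraries there were 1154 DEGs and in a fit of the 12 mutant libraries 911, of which 1143 and 903 were also among the 1779. By adjusted p alone, 1683 of the 9691 genes tested passed in the first of these fits and 1250 of 9396 in the second. DEGs made up 19.3% to 20.4% of the genes tested on X, 2L, 2R, 3L and 3R, and 10.5% of the 76 tested on chromosome 4.

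Libraries of Q79K-W80R had 12100 to 12192 genes above 0 and libraries of T15 11350 to 11469, with summed normalized counts of 23688734 to 24266118 in Q79K-W80R and 27191586 to 29331247 in T15. Depth in reads is not known, but the step between low values, which is the worth of 1 read, was 0.785 to 0.855 in Q79K-W80R libraries and 1.005 to 1.215 in T15 libraries, so the Q79K-W80R libraries were the deeper. The top 10 genes by value held 13.4% to 14.6% of a Q79K-W80R library and 19.2% to 22.7% of a T15 library. The median SD of log2 values among the 3 libraries was 0.07 in Q79K-W80R and 0.12 in T15, against 0.28 in T1, 0.22 in WT, 0.14 in T5 and 0.13 in LP. The second T15 library stood apart in midgut enzymes: 21 of 23 were above 0 there, with a summed count of 184, against 4 to 7 of 23 and sums of 5.75 to 17.1 in the other 5 libraries. No midgut enzyme reached the filter for testing.

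The fly's own Akt was 2690, 2764 and 2704 in Q79K-W80R, against 2948, 3188 and 3134 in T15, for a Log2FC of −0.18 (adjusted p = 0.0153, standard error 0.05, and not passed without the first Q79K-W80R library or in the fits of all 18 and of the 12 mutant libraries, with adjusted p of 0.121 and 0.0955 in these fits). The gene of the driver, tj, which encodes a Maf transcription factor of somatic gonad cells, was 9475, 8871 and 8521 in Q79K-W80R and 15008, 17901 and 15165 in T15 (Log2FC −0.84, standard error 0.08, adjusted p = 0.000168). All 3 Q79K-W80R libraries lay below all 3 T15 libraries at both genes. Whether the tj-GAL4 driver, and with it the dose of AKT1, differed between the lines was not tested in these values. From an immunoblot of ovary extracts, the paper reports similar AKT1 amounts across its lines.

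The largest rises were of genes near 0 in T15. CG12531 (FBgn0031064, on X) had normalized counts of 296, 266 and 223 in Q79K-W80R and 1.99, 1.20 and 3.41 in T15 (Log2FC 6.41, standard error 0.29, adjusted p = 1.54e-05). The highest of the other 12 libraries was the second of T1, at 33.3, so CG12531 was high in Q79K-W80R alone among the 6 lines. CG13032 (FBgn0036652, on 3L) had 121, 113 and 129 in Q79K-W80R and 1.00, 1.21 and 0 in T15 (Log2FC 6.22, standard error 0.37, adjusted p = 3.60e-05), with 34.3 to 71.2 in T1 and at most 1.23 in the T5, WT and LP libraries. Ir94f, of the ionotropic receptor family of chemosensory channels, had 117, 93.8 and 75.3 in Q79K-W80R against 1.00, 0 and 1.14 in T15 (Log2FC 5.87, adjusted p = 5.12e-05). Obp56d, an odorant-binding protein, had 173, 165 and 141 against 10.5, 5.02 and 3.56 in T15 (Log2FC 4.56, adjusted p = 7.08e-05). Myo28B1, an unconventional myosin, had 423, 372 and 347 in Q79K-W80R, against 22.96, 5.20 and 31.2 in T15 (Log2FC 4.497, adjusted p = 0.000481). CG44250, CG4269 and CG9903 also rose, with Log2FC of 4.63, 4.43 and 4.42. The size of these folds depends on the pseudocount where T15 is near 0: over all alternatives CG13032 ranged over 4.46 to 6.81, Ir94f over 4.12 to 6.46 and CG12531 over 5.21 to 6.68. At all 8 genes every Q79K-W80R library lay above every T15 library, which the rule for naming required. The rule for naming also picked the pseudogene CR42722 and the ribosomal RNA unit pre-rRNA:CR45847. Reads of such copies cannot be told apart from those of near-identical copies, and both were at 0 in the first and second T15 libraries.

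**Figure D1:**
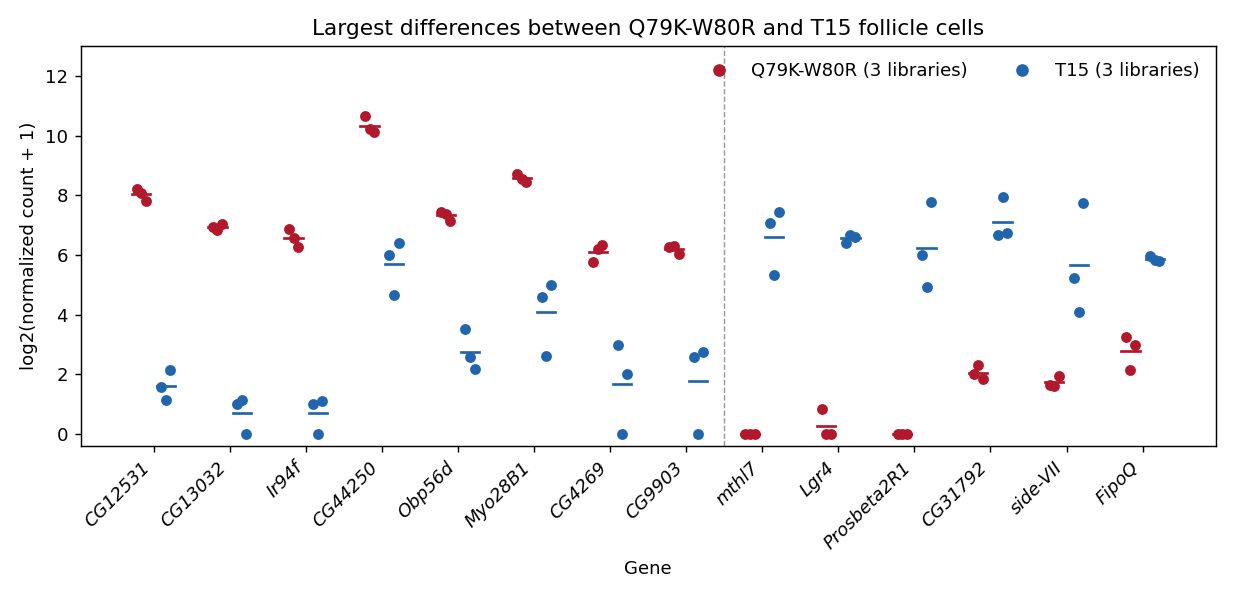
Normalized counts on a log2 scale after adding 1 (vertical axis) for 14 genes with the largest rises (left of the dashed line) and falls (right), with 1 point per library and a line at the mean of 3 libraries. Q79K-W80R points (red) stand apart from T15 points (blue) at every gene, which the rule for naming required. mthl7 and Prosbeta2R1 are listed at 0 in all 3 Q79K-W80R libraries.

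Lgr4, a leucine-rich repeat G protein-coupled receptor on X, was 0.792, 0 and 0 in Q79K-W80R and 83.2, 102 and 96.0 in T15 (Log2FC −6.28, standard error 0.36, adjusted p = 3.46e-05, with a range of −7.10 to −4.23 over the alternatives, its ends at pseudocounts of 0.5 and 5). It lay between 39.0 and 140 in each of the 12 libraries of T1, T5, WT and LP, and it was the 1 gene of the matrix at 2 or less in all Q79K-W80R libraries and at 15 or more in all others. Conversely, 3 genes were at 15 or more in all T15 libraries and at 5 or less in all libraries of Q79K-W80R, T1, WT and LP. mthl7, a receptor of the methuselah family, was listed at 0 in all 3 Q79K-W80R libraries and at 133, 39.2 and 172 in T15. Prosbeta2R1, which encodes a testis form of a proteasome subunit, was likewise listed at 0 in Q79K-W80R and at 62.4, 29.1 and 215 in T15. CG31792 was 3.06, 3.96 and 2.60 in Q79K-W80R and 100, 242 and 106 in T15 (Log2FC −5.05, adjusted p = 6.92e-05). These 3 genes were at or near 0 in T5 except in the second library, which had 19.4 for mthl7, 45.6 for Prosbeta2R1 and 54.8 for CG31792. side-VII, of the sidestep family of immunoglobulin-domain proteins, was 2.09, 2.09 and 2.84 in Q79K-W80R, against 36.2, 15.9 and 213 in T15 (Log2FC −3.95, adjusted p = 0.00596), and 28.3 in the second T5 library. FipoQ fell too, with a Log2FC of −3.07 (adjusted p = 0.000288).

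Other large falls were uneven among libraries of a line. CG18542 was 2.36, 481 and 1.70 in Q79K-W80R and 484, 523 and 526 in T15, and single libraries of T1, WT and LP were also near 0. Its adjusted p of 0.0477 was 0.0813 to 0.159 when any library but the second of Q79K-W80R was left out. The antisense RNA asRNA:CR45968 was 35.4, 0 and 0 in Q79K-W80R, against 57.2, 98.2 and 93.8 in T15 (adjusted p = 0.0192). The pseudogene CR42723, which lies beside CR42722 on 3L, was 19.6, 303 and 0 in Q79K-W80R and 793, 1826 and 1425 in T15. The copy 28SrRNA:CR45837 was listed at 0 in Q79K-W80R, T5 and LP. These 2 are also copies that share reads with others.

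The smallest p values belonged to genes with tight replicates. FBgn0027341, to which the annotation gives no symbol, was 1436, 1398 and 1295 in Q79K-W80R and 229, 188 and 218.2 in T15 (Log2FC 2.70, standard error 0.09, adjusted p = 1.54e-05). CG13659 was 653, 570 and 611 against 60.3, 44.9 and 59.5 in T15 (Log2FC 3.46), and CG5853 was 8147, 7920 and 7944 against 1942, 1456 and 1685 in T15 (Log2FC 2.25). Sk1, a sphingosine kinase, and Idgf1, a secreted growth factor of the chitinase-like family, had Log2FC of 1.85 and 3.03. The 5 falling genes with the smallest p were the chorion and eggshell genes Cp36, yellow-g and yellow-g2, tyn, which encodes a zona pellucida domain protein, and CG10163.

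Insulin and TOR signaling genes moved in both directions, and the rises were the larger. Of 32 genes of the PI3K, Akt and TOR list, all tested, 12 were higher and 6 lower in Q79K-W80R (median Log2FC 0.09, against 0.00 over all genes); of all genes 25.0% were higher and 23.8% lower. chrb and scyl, which encode the fly REDD1 proteins that inhibit TOR, led the list. chrb was 7599, 7963 and 8675 in Q79K-W80R and 2101, 1793 and 2418 in T15 (Log2FC 1.95, standard error 0.11, adjusted p = 2.86e-05), and scyl was 14348, 14941 and 15005 against 6402, 5099 and 6582 in T15 (Log2FC 1.301, adjusted p = 6.47e-05). The 3 Q79K-W80R libraries lay above all T15, WT and LP libraries at both genes, and T15 lay above WT at scyl. Sesn, a sestrin that restrains TOR, rose by a Log2FC of 1.28, Pi3K21B, the regulatory subunit of PI3K, by 1.25, Thor, the translation inhibitor 4E-BP, by 1.14, and PRAS40, an inhibitory partner of TOR complex 1, by 0.94. trbl, an inhibitor of Akt, rose by 0.46. Pdk1 was the lone DEG of the list that fell, at 1934, 1780 and 1839 in Q79K-W80R and 2803, 3354 and 2917 in T15 (Log2FC −0.70, adjusted p = 0.000266). The insulin receptor InR overlapped between the groups at 973 to 1047 in Q79K-W80R and 900 to 1142 in T15 (Log2FC −0.04, adjusted p = 0.760), as did chico (−0.00, adjusted p = 0.971). In the fits of all 18 and of the 12 mutant libraries, 5 members were higher in each, and 1 and 0 lower. Over all genes, 1683 of 9691 and 1250 of 9396 passed in these fits, in either direction.

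Of 10 genes known as targets of FOXO, 6 rose and none fell in Q79K-W80R, with a median Log2FC of 0.89. Among all genes tested, 25.0% were higher and 23.8% lower. Ilp6, an insulin-like peptide, was 3745, 4019 and 3940 in Q79K-W80R and 1050, 560 and 1017 in T15 (Log2FC 2.21, standard error 0.22, adjusted p = 0.000203). Lip4, an acid lipase, was 3804, 3543 and 3276 against 1250, 934 and 1084 in T15 (Log2FC 1.71, adjusted p = 3.90e-05), and bmm, the brummer triglyceride lipase, 2354, 2250 and 1986 against 1248, 1097 and 1222 in T15 (Log2FC 0.88, adjusted p = 0.000139). The groups did not overlap at any of them. Pepck1, the enzyme of gluconeogenesis, had 5356, 5362 and 5387 in Q79K-W80R but 613, 133 and 1239 in T15 (Log2FC 3.52, adjusted p = 0.00421), and an overlapping gene, CG45087, is listed with the same values, so reads of these genes cannot be told apart. Thor and daw, an activin ligand, were the other risers. tobi had a Log2FC of 0.89 and did not pass, nor did InR (−0.04), NLaz (0.09) or Myc (−0.16). foxo itself was 1755, 1732 and 2017 in Q79K-W80R and 1351, 1284 and 1655 in T15 (Log2FC 0.36, adjusted p = 0.0220). Counts of higher targets were 4 and 3 in the fits of 18 and 12 libraries. Of all genes, 1683 of 9691 and 1250 of 9396 passed there in either direction.

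**Figure D2:**
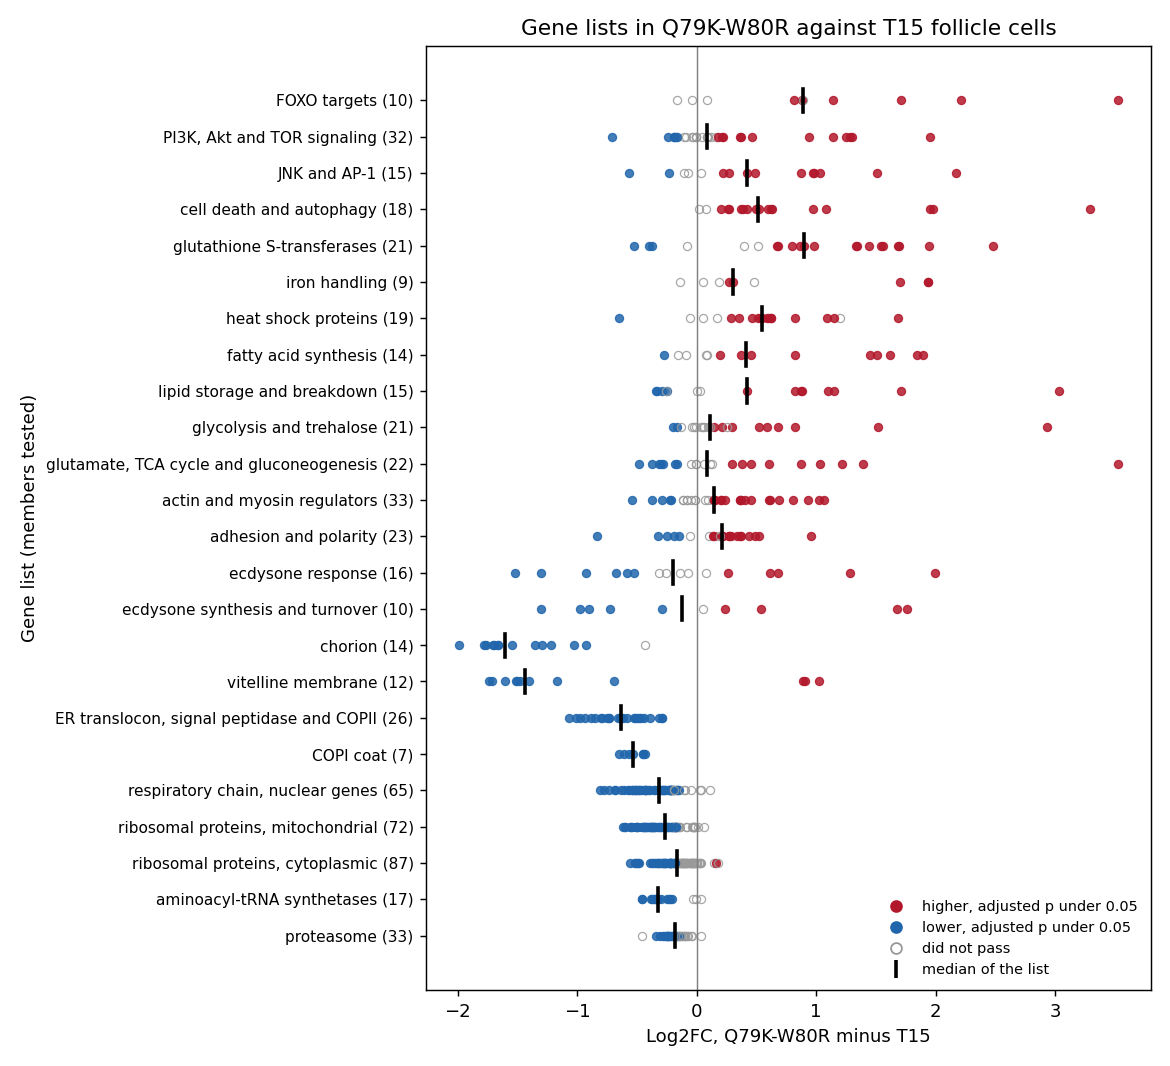
Log2FC of Q79K-W80R minus T15 (horizontal axis) for each tested member of 24 gene lists (rows, with the number tested), filled where the adjusted p was under 0.05, with a black bar at the median of the list. Chorion and vitelline membrane genes lie furthest to the left, with medians of −1.60 and −1.44, while FOXO targets and glutathione S-transferases have medians of 0.89 and 0.90.

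Eggshell transcripts were lower in Q79K-W80R. Of 14 chorion genes, which encode the proteins of the outer eggshell and its cross-linking enzymes, 13 fell and none rose, with a median Log2FC of −1.60 and a range of −1.99 to −0.44, where 23.8% of all genes were lower. Cp36, a major early chorion protein, was 15239, 15178 and 13824 in Q79K-W80R and 50478, 46067 and 46987 in T15 (Log2FC −1.70, standard error 0.06, adjusted p = 1.54e-05). yellow-g, needed to harden the eggshell, was 3254, 3226 and 2984 in Q79K-W80R and 13976, 12438 and 11234 in T15 (Log2FC −1.99, standard error 0.08). The late chorion gene Cp15 was 69640, 63949 and 63258 against 137118, 128038 and 110384 in T15 (Log2FC −0.93, adjusted p = 0.000224), and Cp18 had a Log2FC of −1.35. The groups did not overlap at any of these. Femcoat had −0.44 and did not pass. In bulk RNA such as this, fewer cells of a stage and less RNA per cell cannot be told apart. The chorion count holds for the spread of these 6 libraries. In the fit of all 18 libraries 3 members were lower, and in the fit of the 12 mutant libraries none. Over all genes, 1683 of 9691 and 1250 of 9396 passed in these fits, in either direction. Cp36 ranged over 4059 to 39349 among T1 libraries and 12647 to 49422 among T5 libraries.

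The inner eggshell followed the same direction. Of 12 vitelline membrane genes, 9 fell and 3 rose, against 23.8% lower and 25.0% higher among all genes. Vm34Ca, one of the abundant vitelline membrane proteins, was 187126, 202983 and 178965 in Q79K-W80R and 582953, 651683 and 498352 in T15 (Log2FC −1.60, standard error 0.12, adjusted p = 7.91e-05). Vml, a vitelline membrane protein with a role in embryo patterning, was 59357, 59855 and 53356 against 152262, 163720 and 139677 in T15 (Log2FC −1.40, adjusted p = 3.64e-05). ndl, the nudel protease that starts the dorsoventral cascade, fell by 1.51 on the log2 scale. The 3 that rose were clos, fs(1)N and fs(1)M3 (Log2FC 1.03, 0.91 and 0.89), whose products are known to be made by the oocyte. fs(1)N was 1391, 1594 and 1588 in Q79K-W80R, against 675, 548 and 1436 in T15, so the third T15 library overlapped with Q79K-W80R, and its adjusted p of 0.0419 was lost in 8 of the 16 alternative fits, as were those of fs(1)M3 in 10 and of clos in 5. In the fit of all 18 libraries 7 genes of the list were lower and in that of the 12 mutant libraries 1. None was higher in either, and Vml passed in neither. Of all genes, 1683 of 9691 and 1250 of 9396 passed there in either direction. yl, the yolk receptor of the oocyte, was 10485, 11400 and 11936 in Q79K-W80R and 4477, 4334 and 9147 in T15 (Log2FC 1.00, adjusted p = 0.0146).

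The yolk protein genes Yp1, Yp2 and Yp3 had Log2FC of −0.60, −0.60 and −0.87. Yp3 was 89470, 97393 and 100439 in Q79K-W80R and 170355, 195591 and 159639 in T15 (adjusted p = 0.000336). With quantile normalization Yp1 and Yp2 turned to higher in Q79K-W80R (0.42 and 0.27), and so no direction holds for these 2 genes, which are among the highest of each library.

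**Figure D3:**
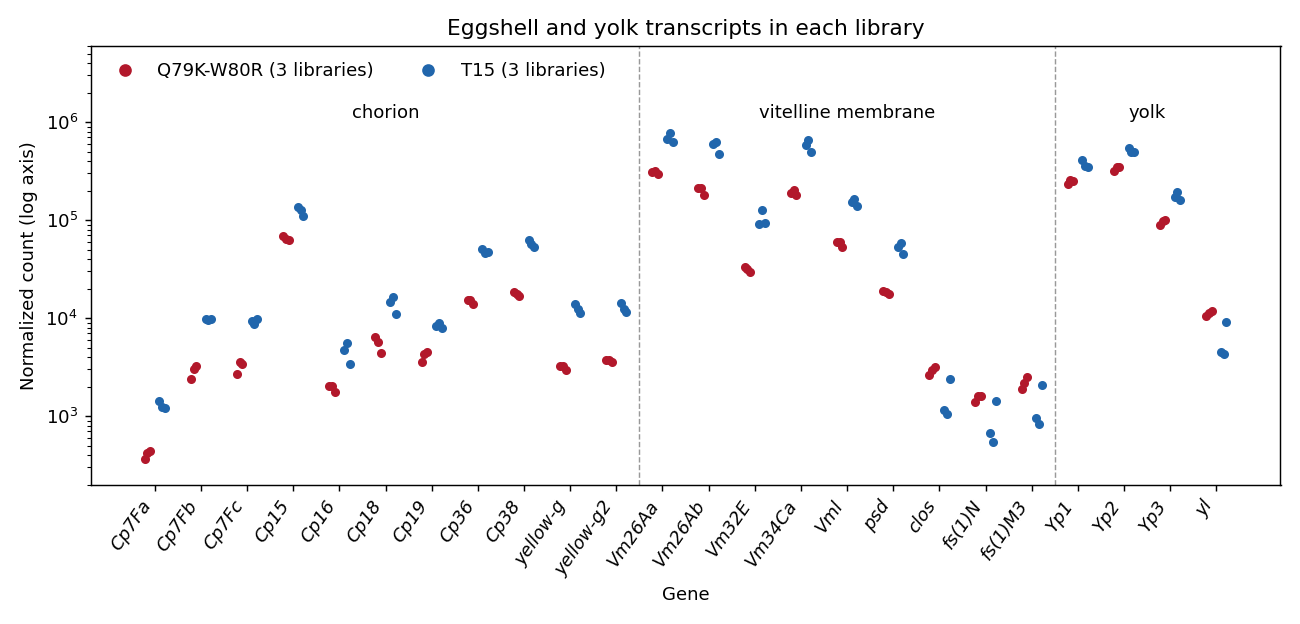
Normalized counts of 24 eggshell and yolk genes (log vertical axis) with 1 point per library, Q79K-W80R in red to the left of T15 in blue. The 3 Q79K-W80R libraries lie below the 3 T15 libraries at every chorion gene shown and at the vitelline membrane genes Vm26Aa to psd, while at fs(1)N, fs(1)M3, clos and yl the third T15 library stands above the other T15 libraries.

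The third T15 library was also the highest of its group in germline RNA. Of 18 germline markers, 14 were higher in Q79K-W80R and none lower (median Log2FC 0.84), where 25.0% of all genes were higher and 23.8% lower. Their summed count was 32056 to 39516 in Q79K-W80R, and 18091, 14879 and 32182 in the 3 T15 libraries, with no marker at 0 in any of the 6. osk, the determinant of the germ plasm, was 8882, 10203 and 11816 in Q79K-W80R and 4313, 4116 and 9457 in T15 (Log2FC 0.89, adjusted p = 0.0378), and bcd, the anterior determinant, had a Log2FC of 1.17 (adjusted p = 0.00947). Without the third T15 library 18 of 18 markers were higher, with a median of 1.18, and 3 to 8 were when any other library was left out. vas, a germline helicase, did not pass (0.30, adjusted p = 0.178). Germline markers thus moved together with yl, clos, fs(1)N and fs(1)M3 and with the meiotic gene mtrm (Log2FC 1.29, adjusted p = 0.0114), and their part in any other result was not tested.

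Markers of other cells differed widely in level. Many were at or near 0, while the muscle marker Tm1 was at 15355 to 18374 over the 6 libraries. Shares over all genes were 25.0% higher and 23.8% lower. Of 8 hemocyte markers, 6 were tested and 4 rose, among them Hml, a blood cell protein, at 79.8, 62.3 and 57.8 in Q79K-W80R and 17.9, 25.3 and 15.9 in T15 (Log2FC 1.72, adjusted p = 0.000893), and crq, a scavenger receptor that follicle cells also can express, with 1.47. The summed hemocyte count was 7229 to 8130 in Q79K-W80R and 3153 to 3794 in T15, and crq alone gave most of it. Of 10 fat body markers, 3 were tested and 2 rose, Apoltp (1.47) and Adh (1.37), while apolpp was 85.9, 61.9 and 36.5 in Q79K-W80R and 45.1, 229 and 89.1 in T15 and did not pass (−0.74, adjusted p = 0.302). Adh alone gave most of the fat body sums of 3038 to 3345 in Q79K-W80R and 1103 to 1926 in T15. Of 17 muscle markers tested, 2 were higher and 5 lower, with a median Log2FC of −0.16 and 14 of the 17 below 0. Against that direction, bt had the largest change (Log2FC 1.65, adjusted p = 0.000643). Among those that fell were Mp20 (−0.63), Mlc1 (−0.60) and Act57B (−0.46). Muscle sums were 25475 to 26047 in Q79K-W80R and 25289 to 29466 in T15, and Tm1 alone gave most of each. The part of all these markers in the results was not tested.

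**Figure D4:**
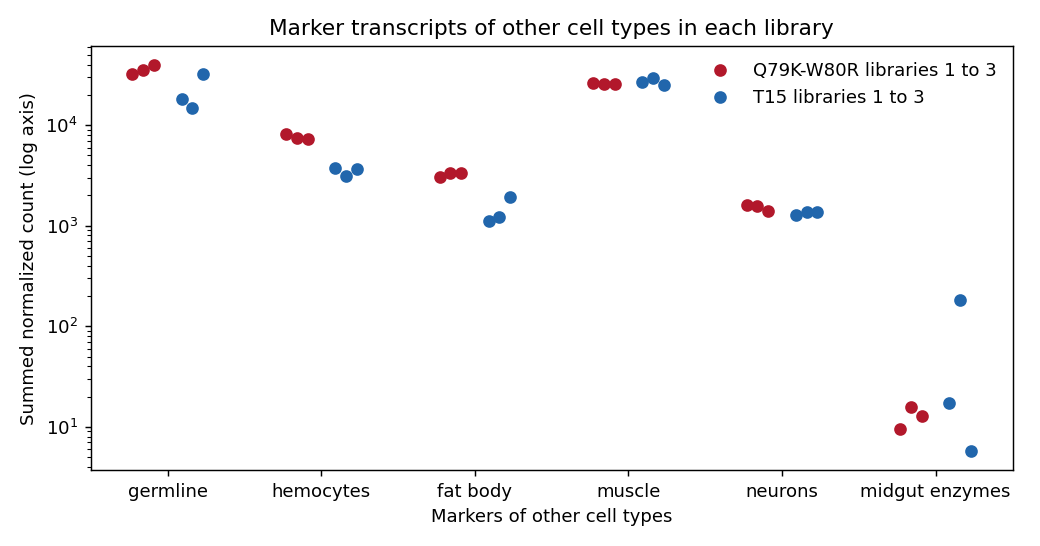
Summed normalized counts of marker genes of 6 other cell types (log vertical axis) in each library, Q79K-W80R in red to the left of T15 in blue. Germline, hemocyte (mostly crq) and fat body (mostly Adh) sums are higher in Q79K-W80R, except that the third T15 library reaches the lowest Q79K-W80R library in germline RNA, and the second T15 library stands above all others in midgut enzymes.

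Of 16 response genes tested, Q79K-W80R had 5 higher and 6 lower. All genes tested had shares of 25.0% higher and 23.8% lower. Among the early and early late genes, Eip74EF, Hr3 and Eip78C fell and Eip75B rose (Log2FC 0.68, adjusted p = 0.000737). Eip74EF, an Ets factor, was 1061, 1118 and 1082 in Q79K-W80R and 1989, 2316 and 1925 in T15 (Log2FC −0.93, standard error 0.08, adjusted p = 9.25e-05). The nuclear receptor Hr3 was 1176, 1271 and 1486 against 2903, 3796 and 3054 in T15 (Log2FC −1.31, adjusted p = 0.000142), and Eip78C had −1.52. Hr38 and Hnf4, a nuclear receptor of lipid and sugar metabolism, rose. Hnf4 was 4472, 4508 and 4501 in Q79K-W80R and 2032, 1520 and 2026 in T15 (Log2FC 1.29, adjusted p = 0.000105). EcR, the hormone's receptor, did not pass (−0.14, adjusted p = 0.148).

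Among 10 genes of ecdysone synthesis and turnover, the 5 that fell all encode enzymes or factors of synthesis. The highest riser among enzymes encodes the one that inactivates the hormone. Over all genes, 23.8% were lower and 25.0% higher. spo, the cytochrome P450 of an early step, was 1658, 1675 and 1701 in Q79K-W80R and 4140, 4462 and 3834 in T15 (Log2FC −1.302, standard error 0.06, adjusted p = 1.73e-05). shd, which makes the active hormone, had −0.98, sro −0.90, sad −0.72 and dib −0.29. Cyp18a1, the hydroxylase that inactivates ecdysteroids, was 4084, 3600 and 3277 against 1022, 1134 and 1277 in T15 (Log2FC 1.67, standard error 0.10, adjusted p = 3.77e-05). Oatp74D, the importer of ecdysone, rose by a Log2FC of 1.76 (adjusted p = 7.04e-05). The groups did not overlap at any of these.

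Of 23 genes of follicle cell identity tested, 8 were higher and 6 lower, with a median of 0.12, where 25.0% of all genes were higher and 23.8% lower. pip, the sulfotransferase that marks ventral follicle cells, was 454, 458 and 454 in Q79K-W80R and 994, 1189 and 1003 in T15 (Log2FC −1.21, standard error 0.08, adjusted p = 4.62e-05). slbo, the C/EBP factor of border cells and other follicle cells, was 149, 191 and 206 against 490, 499 and 399 in T15 (Log2FC −1.35, adjusted p = 0.000290), and mirr, a homeobox factor of the anterior dorsal cells, had −0.90. The libraries of the 2 lines did not overlap at these genes. Socs36E, a target and inhibitor of JAK/STAT signaling, and ush, a GATA cofactor, rose by 1.04 and 1.12.

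Genes of follicle maturation and ovulation also split, with 6 of 12 higher and 3 lower. SPR, the sex peptide receptor, was 115.3, 171 and 227 in Q79K-W80R and 46.1, 35.8 and 58.8 in T15 (Log2FC 1.82, adjusted p = 0.00132). Nox, the NADPH oxidase needed for ovulation, had 1.18 and the metalloprotease Mmp2 0.95, while ttk, a zinc finger factor of late follicle cells, had −0.80 and Hr39 −0.68. Of 25 genes of the Notch and endocycle list, 10 were higher, 5 lower and 10 did not pass (median 0.15), against 25.0% higher and 23.8% lower over all genes. CycB, CycA and CycB3, the mitotic cyclins, rose by 0.82, 0.73 and 0.59, and fzr, which directs their degradation as the endocycle begins, was 1231, 1120 and 1087 in Q79K-W80R and 1737, 1821 and 1799 in T15 (Log2FC −0.64, adjusted p = 0.000175). CycE, the S phase cyclin, had −0.44. dpp, the BMP ligand of anterior follicle cells, was 268, 246 and 235 against 477, 457 and 415 in T15 (Log2FC −0.84, adjusted p = 0.000262).

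Of 15 tested genes of a list that holds receptors, kinases and targets of the stress kinase JNK and its factor AP-1, 10 rose and 2 fell in Q79K-W80R (median 0.42), where 25.0% of all genes were higher and 23.8% lower. puc, the phosphatase that JNK induces and that restrains it, was 2765, 2749 and 2791 in Q79K-W80R and 1408, 1325 and 1509 in T15 (Log2FC 0.97, standard error 0.06, adjusted p = 3.60e-05). Ets21C, an Ets factor induced by stress, was 80.3, 101 and 102 against 18.6, 19.7 and 21.8 in T15 (Log2FC 2.17, adjusted p = 9.41e-05), and Mmp1, a matrix metalloprotease, was 568, 476 and 380 against 204, 144 and 150 in T15 (Log2FC 1.51, adjusted p = 0.000466). Each was apart between the lines. The TNF receptor wgn fell by 0.57 on the log2 scale, the other TNF receptor gene grnd rose by a Log2FC of 1.03, and the kinase gene bsk itself had −0.23, a call lost when any library but the third of T15 was left out (adjusted p = 0.0588 to 0.0825).

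Cell death and autophagy genes moved one way: 16 of 18 tested rose and none fell, with a median Log2FC of 0.51, where 25.0% of all genes were higher. Among them were the death activators rpr and hid. rpr was 245, 265 and 218.3 in Q79K-W80R and 64.7, 49.9 and 73.5 in T15 (Log2FC 1.95, standard error 0.16, adjusted p = 0.000104), and hid was 1827, 1531 and 1086 against 365, 324 and 415 in T15 (Log2FC 1.98, adjusted p = 0.000152). Dronc, the initiator caspase, had 860, 835 and 843 in Q79K-W80R, against 369, 393 and 434 in T15 (Log2FC 1.09, adjusted p = 5.41e-05), while Diap1, which blocks caspases, rose as well (0.60). Drat was 13538, 14176 and 16032 against 2160, 578 and 2615 in T15 (Log2FC 3.29, adjusted p = 0.00133). The autophagy receptor ref(2)P rose by 0.97 and Atg8a by 0.63. In the fits of 18 and 12 libraries 9 and 8 of the list were higher. Over all genes, 1683 of 9691 and 1250 of 9396 passed in these fits, in either direction.

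Sugar and lipid genes rose at defined steps. Of 21 genes of glycolysis and trehalose, 9 were higher and 2 lower, against 25.0% higher and 23.8% lower over all genes. The median was 0.11, so most of the pathway lay close to the median of all genes. sug, a zinc finger factor of sugar responses, was 329, 292 and 223 in Q79K-W80R and 60.2, 18.2 and 40.1 in T15 (Log2FC 2.94, standard error 0.39, adjusted p = 0.000728). Glut1, a glucose transporter, was 391, 409 and 439 against 156, 101 and 186 in T15 (Log2FC 1.52, adjusted p = 0.000781). Pgd and Zw, the NADPH-making enzymes of the pentose phosphate pathway, rose by 0.74 and 0.42.

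Around glutamate and the TCA cycle, 9 of 22 genes were higher and 7 lower, and all 7 that fell encode enzymes of the cycle. Such counts stand beside 25.0% higher and 23.8% lower over all genes. They included the citrate synthase kdn (−0.48), the fumarase Fum1 (−0.38) and SdhA (−0.32). Gdh, glutamate dehydrogenase, was 21778, 23378 and 25560 in Q79K-W80R and 18728, 17678 and 17873 in T15 (Log2FC 0.38, adjusted p = 0.00277), Oat, ornithine aminotransferase, rose by 1.03 and the glutamine synthetase Gs1 by 1.22. Of 14 fatty acid synthesis genes tested, 9 rose and ACC alone fell (−0.27). FASN1, the fatty acid synthase, was 11428, 12331 and 13458 against 5246, 3011 and 5902 in T15 (Log2FC 1.45, adjusted p = 0.00147), and Lpin, the lipin phosphatase, had 0.82. Lsd-1, a perilipin that coats lipid droplets, was 2978, 2380 and 1869 in Q79K-W80R and 416, 166 and 344 in T15 (Log2FC 3.04, standard error 0.32, adjusted p = 0.000288), and its relative Lsd-2 rose by 0.82. Mtpalpha and Mtpbeta, of mitochondrial fatty acid oxidation, fell by 0.29 and 0.34 on the log2 scale.

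Genes of detoxification were higher in Q79K-W80R. Of 21 glutathione S-transferases tested, 15 rose and 3 fell, and all 15 that rose were DEGs. Shares over all genes were 25.0% higher, 23.8% lower and 13.9% for higher DEGs. GstE3 was 1188, 1184 and 1142 in Q79K-W80R and 425, 349 and 417 in T15 (Log2FC 1.56, standard error 0.08, adjusted p = 2.86e-05), and GstD1, a detoxifying enzyme induced by oxidative stress, was 23934, 24079 and 24938 against 11025, 7388 and 11033 in T15 (Log2FC 1.33, adjusted p = 0.000315). Gst genes of the D and E classes are neighboring copies, and reads of close copies may have been split among them. Among families chosen after the values were seen, 29 of 45 cytochromes P450 with Cyp symbols tested rose and 1, Cyp4s3, fell (the P450 genes spo, shd, sad and dib carry other symbols and are not in this count), 13 of 18 UDP-glycosyltransferases rose and 2 fell, and all 4 organic anion transporters and all 3 Turandot stress peptides tested rose. Cyp9b2 was 672, 716 and 678 in Q79K-W80R and 114, 66.5 and 79.9 in T15 (Log2FC 3.01, adjusted p = 3.64e-05).

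Ferritin was higher by almost 2 log2 units. Fer1HCH and Fer2LCH, the subunits of the iron storage protein, were 60930, 55439 and 46346, and 51721, 47121 and 40984 in Q79K-W80R, against 17107, 11070 and 14864, and 15007, 9376 and 12565 in T15 (Log2FC 1.93 and 1.94, adjusted p = 0.000110 for both). Zip99C, which exports iron into the secretory pathway, rose by 1.70. These neighbors on 3R and Zip99C were 3 of the 5 iron genes that rose, of 9 tested, with none that fell. The all-gene shares were 25.0% higher and 23.8% lower. The iron regulatory proteins Irp-1A and Irp-1B did not pass (−0.14 and 0.05).

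Of 19 heat shock genes, 14 rose and Hsp70Ba alone fell, against 25.0% higher and 23.8% lower over all genes. stv, a cochaperone, was 4870, 5176 and 4992 in Q79K-W80R and 2459, 2201 and 2393 in T15 (Log2FC 1.09, standard error 0.06, adjusted p = 2.41e-05). Hsp70Bbb had 1.68, Hsp70Bc 1.15 and Hsp70Ba −0.65, but the Hsp70 copies are nearly identical and the split of reads among them is uncertain. No heat shock gene passed in the fits of 18 or 12 libraries, where 1683 of 9691 and 1250 of 9396 genes did.

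Cytoskeletal genes moved in part. Of 33 actin and myosin regulators tested, 18 were higher and 5 lower, with a median of 0.15. For this and the lists below, the all-gene shares were 25.0% higher and 23.8% lower. cib, which binds monomeric actin, was 32888, 31986 and 29976 in Q79K-W80R and 17178, 13864 and 14522 in T15 (Log2FC 1.06, standard error 0.09, adjusted p = 8.87e-05). Pak3, a kinase downstream of Rac and Cdc42, was 4023, 4138 and 4449 against 2237, 1959 and 2447 in T15 (Log2FC 0.93, adjusted p = 0.000140), and Map205, a microtubule-associated protein, had 0.62. chic, the profilin, had −0.29, jar, myosin VI, −0.38 and ck, myosin VIIa, −0.54. Among 23 adhesion and polarity genes, 14 were higher and 5 lower. Fas3, a septate junction protein of immature follicle cells, was 6249, 5673 and 5181 in Q79K-W80R and 2932, 2550 and 3337 in T15 (Log2FC 0.96, adjusted p = 0.000330), whereas if, an integrin alpha subunit, had −0.83. Cad99C, the cadherin of follicle cell microvilli, had −0.75 (adjusted p = 0.000223), and 6 of the 7 cadherins of this naming tested, a family chosen after the values were seen, fell.

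The machinery that brings proteins into the secretory pathway was lower in Q79K-W80R. Of 26 genes of the translocon, signal peptidase, signal recognition particle, oligosaccharyltransferase and COPII coat, all 26 fell, with a median Log2FC of −0.64, and all 7 genes of the COPI coat fell (median −0.53). Both lists were chosen after the values were seen, and 23.8% of all genes were lower. Sec61alpha, the channel of the translocon, was 30316, 30993 and 29726 in Q79K-W80R and 57507, 67149 and 54746 in T15 (Log2FC −0.97, standard error 0.08, adjusted p = 0.000105), and TRAM was 9722, 9695 and 9357 against 19721, 22668 and 18047 in T15 (Log2FC −1.06, adjusted p = 7.51e-05). The ER chaperones Calr and Hsc70-3 fell by 0.86 and 0.59 on the log2 scale. In the fits of 18 and 12 libraries 17 and 10 of the 26 were lower, and 1 and 0 of the COPI genes. Of all genes, 1683 of 9691 and 1250 of 9396 passed there in either direction.

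Mitochondrial and translation genes fell by less, but in large numbers. Over all genes, 23.8% were lower and 25.0% higher, and lower DEGs made up 6.03%. Of 65 nuclear genes of the respiratory chain tested, 56 fell and none rose (median −0.32), and 7 of the 56 were DEGs. ND-MLRQ, a complex I subunit, was 3811, 4243 and 3979 in Q79K-W80R and 7550, 7035 and 6484 in T15 (Log2FC −0.81, standard error 0.07, adjusted p = 0.000110). The 12 mitochondrially encoded respiratory genes tested gave 1 call, mt:ND5 (−1.01, adjusted p = 0.0115), with a median of −0.59, and the groups overlapped at the other 11. Of 72 mitochondrial ribosomal protein genes, 50 fell and none rose (median −0.26), as did 14 of 17 aminoacyl-tRNA synthetases (−0.32) and 19 of 33 proteasome genes (−0.18). Of 87 cytoplasmic ribosomal protein genes, 34 fell and 1 rose (median −0.16), but with quantile normalization this median was 0.03. In the fits of 18 and 12 libraries, 16 and 11 respiratory genes, 6 and 6 mitochondrial ribosomal genes and no proteasome gene were lower. Over all genes, 1683 of 9691 and 1250 of 9396 passed in these fits, in either direction. The translation factors eIF4G1 and eEF2 had −0.40 (adjusted p = 0.00283) and 0.00 (adjusted p = 0.966).

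The libraries of the other lines were placed on the scale between the means of T15 (0) and Q79K-W80R (1), as the median over DEGs of their log2 values. The ends of this scale are fixed by the choice of DEGs, so these positions carry no test. For the 1240 DEGs higher in Q79K-W80R, the T1 libraries stood at 0.98, 0.79 and 0.14 and the T5 libraries at 0.80, 0.30 and 0.63. For the 539 lower DEGs they stood at 1.45, 0.86 and 0.06 and at 0.78, 0.30 and 0.71. In T1 the third library and in T5 the second thus lay nearer to T15 than the other libraries of their own lines in both directions. WT libraries stood at 0.10 to 0.13 and at −0.12 to 0.22, and LP libraries at 0.05 to 0.34 and 0.28 to 0.67. The spread within T1 and T5 enters the fits of all 18 and of the 12 mutant libraries, where fewer genes passed.

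**Figure D5:**
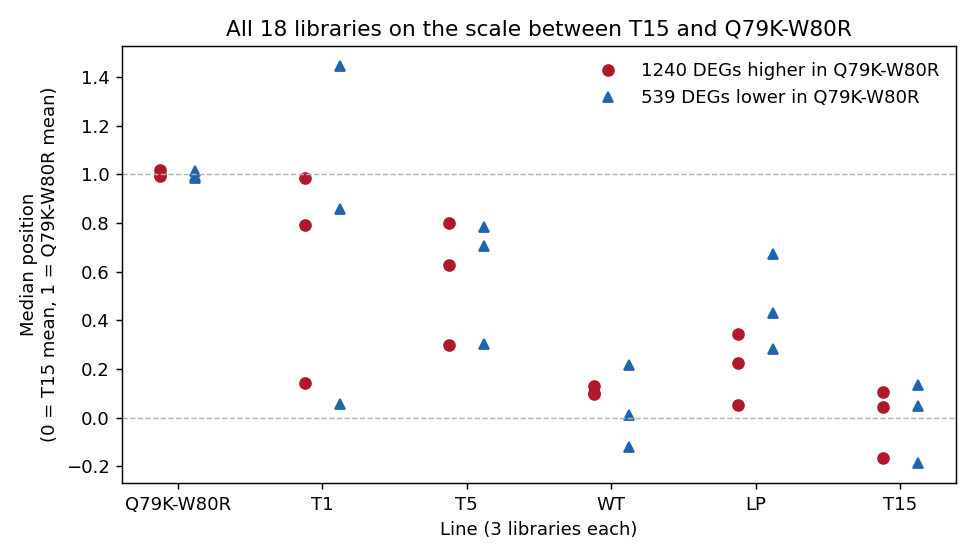
Median position of each library over the DEGs, where 0 is the mean of T15 and 1 the mean of Q79K-W80R (vertical axis), for the 6 lines (horizontal axis), with circles for DEGs higher and triangles for DEGs lower in Q79K-W80R. WT libraries lie close to T15, and T1 and T5 libraries spread over most of the scale.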

How the data were processed

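RNA-Seq values of 6 Q79K-W80R and T15 libraries were compared, from a matrix of 18. Values are a signal, namely RSEM estimates of counts that the authors scaled over all libraries with DESeq2. Per the submitters' notes, bcl2fastq 2.18.0.12, Bowtie and RSEM 1.3.1 were used on stranded mRNA libraries. The genome build is not given in the sources used here, so no coordinates are printed, and a reference annotation served for symbols and chromosome arms (17372 of 17493 genes had a symbol). Whole reads could not be recovered, so no test on counts was run. Values of log2(normalized count + 1) were fitted with limma 3.58.1 in R 4.3.3 (lmFit, eBayes with trend), with a filter of 10 in 3 libraries and Benjamini-Hochberg adjustment over all genes tested. All 18 columns were used; 1 of the Q79K-W80R columns was assigned by its shared name.

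The members, 44 gene lists and naming rule were chosen with earlier results of these data known, and 10 lists were added after the values were seen. Named were the 10 largest rises and falls among DEGs without overlap and with a higher mean of at least 50, the 5 smallest p each way, up to 3 list members each way, and genes of the paper. Among tested genes, 88 had values identical to another gene's. The fit was tested on simulated data. Figures were drawn with matplotlib 3.10.9. The results of 2 genes are not reported here.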

Additional observations from a re-analysis of the deposited data

Results flagged for a closer look

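At 12 named genes the 3 Q79K-W80R libraries all lay on one side of the 3 WT libraries and the 3 T15 libraries all on the other. At each the limma contrast of Q79K-W80R with T15 passed. The 251 named genes were picked in large part by this contrast, in which the groups did not overlap at 61.0% of all genes tested. The share of all genes with such sides of WT was not taken, so the count of 12 carries no test. Lower in Q79K-W80R than in WT, with T15 above WT, were pip (Log2FC −1.21, means 455 in Q79K-W80R, 1062 in T15 and 870.0 in WT), spo (−1.30), TyrRS (−0.454), JhI-21 (−0.82), ATPsynE (−0.48), Ugt302K1 (−0.738), TRAM (−1.06), Lgr4 (−6.28) and Sec61alpha (−0.973, means 30345, 59801 and 50987). Prosbeta2R1 was listed at 0 in all Q79K-W80R libraries, so its fitted value of −6.22 depends on the pseudocount and is no bound. In WT it was 1.28, 1.23 and 4.04, where 1 read was worth 1.235 to 1.345, so its place beside WT rests on a few reads. The value of Lgr4, with 0.792, 0 and 0 in Q79K-W80R, also moves with the pseudocount, between −7.10 and −4.23. Higher in Q79K-W80R than in WT, with T15 below WT, were Idgf1 (3.03, means 233 in Q79K-W80R, 27.6 in T15 and 60.4 in WT) and Sk1 (1.85). The contrasts of Q79K-W80R and of T15 with WT share the WT libraries. These sides are relative to WT alone, and LP did not always lie near WT. The LP mean was 848 at pip, near WT, but 93.8 at Lgr4, beside 93.7 in T15. At JhI-21 it was 2965, between 2531 in Q79K-W80R and 3791 in WT.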

How the results depend on the processing

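The 1779 DEGs (1240 higher, 539 lower) became 1154 (820 and 334) with all 18 libraries in the fit, 911 (692 and 219) with the 12 mutant libraries, and 4360 (2232 and 2128) by adjusted p alone. Calls in either direction over the 44 gene lists chosen with the design were 167 and 125 in the fits of 18 and 12 libraries. Over all genes tested they were 1683 of 9691 and 1250 of 9396. Leaving out 1 library gave 1424 to 1954 DEGs, 921 to 1353 higher and 425 to 601 lower. The gene Yp2 turned to 0.27 (adjusted p = 0.0412) and the gene Yp1 to 0.42 (adjusted p = 0.00155) with quantile normalization, which gave 955 higher and 755 lower DEGs, and there the gene eEF2 passed (0.19, adjusted p = 0.0429). eEF2 otherwise did not pass, and lay on either side of 0 when 1 library was left out, between −0.018 without the third T15 library and 0.022 without the second (−0.013 without the third Q79K-W80R library). The cause was not tested. Other pseudocounts, filters and rescaling by median ratios kept the count of DEGs within 1.5 times. Same-numbered libraries had correlations of 0.04, 0.03 and 0.01 in their deviations from the group means, so the numbers do not pair them, and with the replicate as a block there were 1767 DEGs (1230 and 537). Of 251 named genes, 136 and 111 kept side and direction in the fits of 18 and 12 libraries. Depth in reads is unknown, so values of a few counts have no counting interval, and with 3 libraries a line p-values measure the spread between crosses.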
